A study of Mus musculus with 2 samples.

Results

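The Ly6 family is a group of small cysteine-rich proteins that share a fold of finger-like loops held together by disulfide bonds. Most of them sit on the outer face of the cell membrane on a glycosylphosphatidylinositol (GPI) anchor, and a few, such as Slurp1, are secreted. Ly6a encodes Sca1, the surface antigen that is used in flow cytometry to enrich blood stem cells and, in the mammary gland, to separate luminal hormone-sensing cells from alveolar progenitor cells. Expression of 10 members (Ly6a, Ly6c1, Ly6d, Ly6e, Ly6f, Ly6h, Ly6k, Lypd3, Lypd6 and Slurp1) was compared here between luminal mammary epithelial cells with high and with low activity of the Tbx3 locus. A member was followed on every probe set that the platform annotation pairs with its symbol alone, and Ly6a on a single probe set that the rule names. By this rule 8 of the 10 members had a probe set of their own, 11 probe sets in all, out of 22224 probe sets and 13870 genes named in this way. Ly6c1 shares its probe set with Ly6c2, and Lypd3 is not analysed here.

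Both populations came from the same animals. Mammary epithelial cells of 3 adult virgin female mice, 5 months old and on an FVB background, were pooled. All were heterozygous for a Tbx3 knock-in (Tbx3-Venus-KI, also written Tbx3+/Venus), in which the fluorescent protein Venus replaces Tbx3 at the start codon of an allele, so that both populations carry a single working copy of Tbx3. After dead cells, CD45+ cells and stromal cells had been gated out, luminal cells were recognized by CD24 and CD49f and split by their Venus fluorescence. From each side 200000 cells were collected, and their RNA was hybridized on 1 Affymetrix mouse genome array. Sca1 is not named among the antigens of this sort. With 1 array per population there is no replicate check, no test and no error on any difference, and the number of arrays limits the precision.

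Values are log2 array signals with a floor at a signal of 10 (3.32 on the log2 scale), so the difference of a gene that sits there on 1 array is known only as a bound. A call of higher expression required a log2 difference of 2 or more, which is 4-fold, and a signal of 100 or more on the brighter array. In the values analysed here 0 probe sets were lower in Venus High cells, so a difference can only be 0 or positive, and members that are lower in Venus High cells, if there are any, are not analysed here. For the sort marker, Tbx3, only the size of the difference was free to vary, as its direction is fixed in these values. Tbx3 had log2 signals of 8.72 (Venus High) and 3.62 (Venus Low) on its brightest probe set and of 8.04 and 3.93 on another, and no signal above the floor on the remaining 3. In sorted pools, more cells that express a gene and more RNA per cell cannot be told apart.

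Of the 8 members with a probe set, Ly6a and Ly6d were called higher in luminal Venus High cells, that is 2 of 8 genes and 2 of 11 probe sets. Over all genes 2.39% were called, and over all named probe sets 2.09%. Ly6e and Ly6k reached a signal of 100 but were not called, Slurp1 was above the floor in Venus High cells alone, and Ly6f, Ly6h and Lypd6 were at the floor in both populations. The median log2 difference of the 4 member probe sets that reached a signal of 100 was 2.70, and that of all 5371 named probe sets that did so was 0.49. This compares a handful of genes in a table that leaves out lower values, and nothing particular to the family follows from it.

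**Figure D1:**
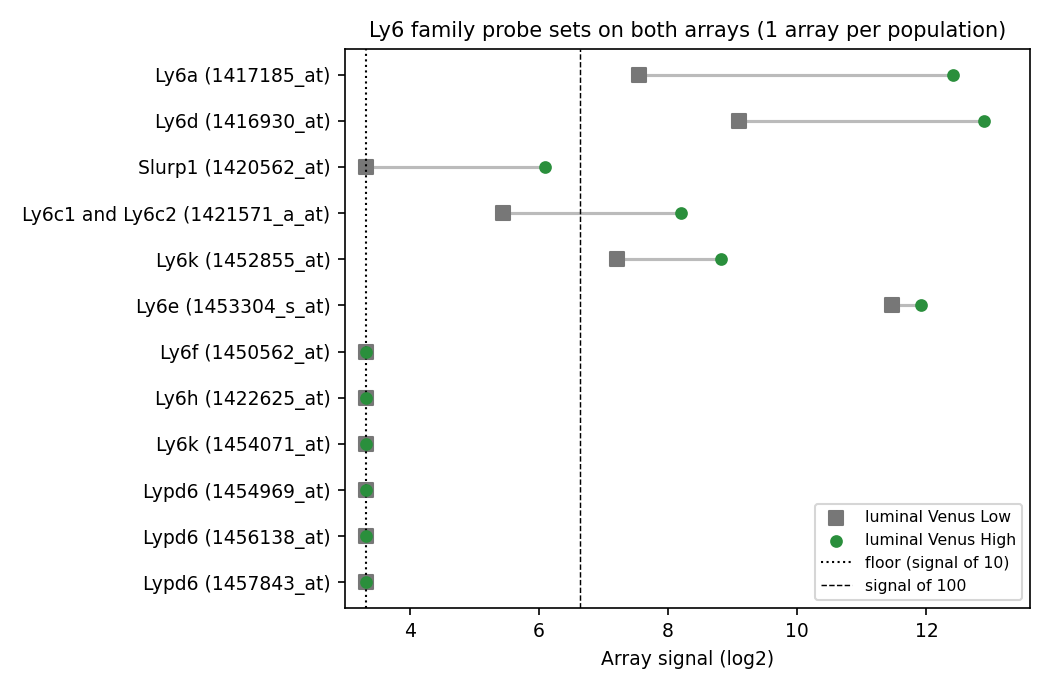
Array signal (log2, horizontal axis) of each Ly6 family probe set, and of the probe set shared by Ly6c1 and Ly6c2, for Venus High (green circles) and Venus Low (grey squares) luminal cells, with 1 array for each. Ly6a and Ly6d have the widest gaps, Slurp1 lies at the floor in Venus Low cells, and 6 probe sets lie at the floor in both populations.

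Ly6a was the member with the largest difference. Its log2 signal was 12.40 in Venus High against 7.54 in Venus Low cells, or 5423 and 187 on the linear scale, a 29.0-fold difference. It was above a signal of 100 in both populations, so signal for the Sca1 transcript was present in Venus Low cells too. Raising the floor to 100 left the difference at 4.86. The probe set was taken as Ly6a from its identifier. The annotation used here does not list it, but both of its values, and those of no other probe set, match the entry for Ly6a in a supplementary list of the study to within 0.0001. Its difference had rank 82 among the 5371 probe sets with a signal of at least 100, with 98.5% of them below it.

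Ly6d, which encodes a GPI-anchored surface protein known from keratinocytes and from early B-lineage cells, was the other called member. Its log2 signal was 12.89 in Venus High against 9.11 in Venus Low cells, or 7615 and 551 on the linear scale. This 13.8-fold difference, 3.79 on the log2 scale, had rank 167 among the same 5371 probe sets, with 96.9% below it. The gap between the differences of Ly6a and Ly6d was 1.07 on the log2 scale. For comparison, the pooled SD between differences of probe sets for 1 gene was 0.31 (1062 genes), a spread within these 2 arrays that says nothing about animals and that may be too small, since lower values are missing from it. Neither Ly6a nor Ly6d has another probe set here, so neither difference could be checked on a second one.

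**Figure D2:**
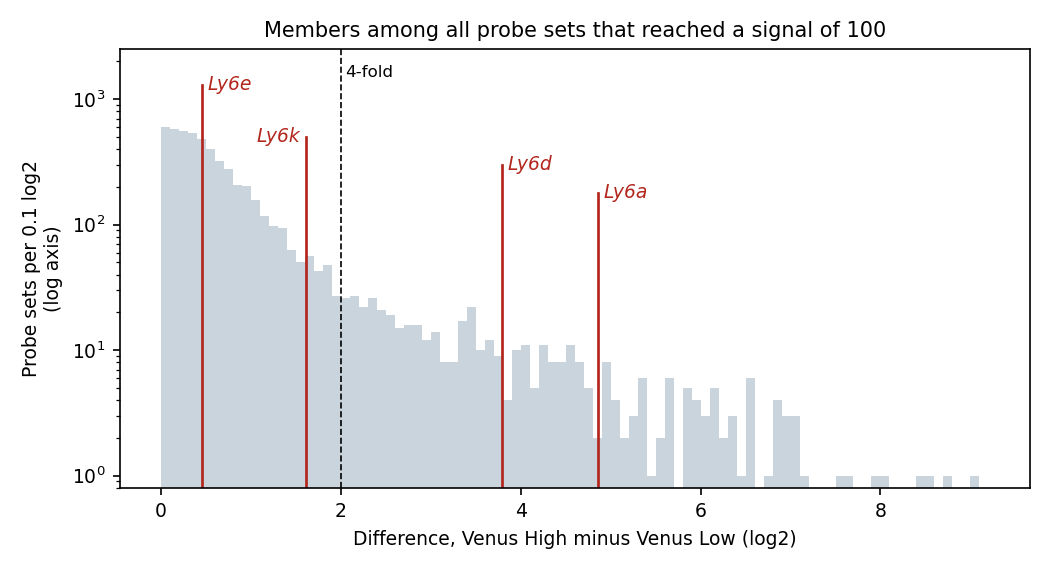
Number of probe sets (vertical axis, log scale) by log2 difference, Venus High minus Venus Low (horizontal axis, bins of 0.1), for the 5371 named probe sets that reached a signal of 100. Red lines mark the 4 member probe sets among them (their heights carry no value), with Ly6e near the bulk, Ly6k below the dashed 4-fold line, and Ly6d and Ly6a in the upper tail.

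Ly6e and Ly6k were detected in both populations with smaller differences. Ly6e is an interferon-inducible member found on many cell types, and in mouse placenta it serves as the receptor for syncytin-A. Its log2 signal was 11.92 in Venus High against 11.46 in Venus Low cells, a 1.37-fold difference. This difference of 0.45 was below the median of all named probe sets with a signal of at least 100. Median centring of the arrays changed the difference to -0.21, and quantile normalization to -0.15. Lower probe sets are absent from the values behind both scalings, so the changed sign does not tell the direction of Ly6e. By its name the Ly6e probe set is of a type that can match more than 1 transcript. Ly6k, which is known from testis and is needed for sperm function, had log2 signals of 8.82 and 7.21 on the brighter of its probe sets, a 3.05-fold difference (1.61 on the log2 scale, and 0.95 after median centring). The other was at the floor in both populations, so the Ly6k probe sets disagree on whether the gene is detected at all.

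Slurp1 encodes a secreted member that acts on nicotinic acetylcholine receptors and whose human counterpart is mutated in a palmoplantar skin disease. Its log2 signal was 6.09 in Venus High cells, a linear signal of 68.1, and it was at the floor in Venus Low cells. Against the floor of 10 this is at least 6.81-fold higher. The signal lies below 100, so Slurp1 was not called, and with the floor raised to 32 its log2 difference was 1.09.

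The remaining members with probe sets of their own gave no signal above the floor. Ly6h, a brain member that modulates nicotinic receptors, gave no signal above the floor in either population on its single probe set, and neither did Ly6f. Lypd6, a GPI-anchored protein that acts together with the WNT co-receptor Lrp6, was at the floor in both populations on all 3 of its probe sets. Of the 11 member probe sets, 6 were at the floor in both populations, as were 16370 of all 29338 probe sets in the table.

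Ly6c1, a member known from monocytes, endothelial cells and some T cells, can only be read together with Ly6c2. The annotation gives a single probe set to both of these neighbouring genes, and its signal cannot be divided between them. It had log2 signals of 8.21 in Venus High against 5.44 in Venus Low cells, or 296 and 43.5 on the linear scale, a 6.80-fold difference. Taken as a probe set of Ly6c1 it would have been called, which would make 3 called members, a reading that was added after its value was seen. With the floor at 100 its log2 difference was 1.56, below 4-fold. Several Ly6 genes are near copies of each other, and signal that crosses between them on the array was not tested.

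The sequence before the start was compared for the genes that could be matched. No transcript or probe sequence was compared. RefSeq promoter windows on GRCm38.p6 were given for 4 of the 10 members (Ly6c1, Ly6f, Lypd3 and Lypd6) and for Ly6c2. The 250 bases before the annotated start of Ly6c1 (the first of its 2 starts in the table, chr15:75048838-75049087, minus strand), Ly6c2 (the first of 2, chr15:75111972-75112221, minus strand) and Ly6f (chr15:75268171-75268420, plus strand) are shown 5′ to 3′, because Ly6c1 and Ly6c2 share the probe set that was higher in Venus High cells while Ly6f was at the floor in both populations. Capitals mark each match to the letters TATAAA of the promoter element that positions transcription starts. They also mark each match to AGGTCA, the half-site bound by the estrogen receptor and other nuclear receptors.
Ly6c1: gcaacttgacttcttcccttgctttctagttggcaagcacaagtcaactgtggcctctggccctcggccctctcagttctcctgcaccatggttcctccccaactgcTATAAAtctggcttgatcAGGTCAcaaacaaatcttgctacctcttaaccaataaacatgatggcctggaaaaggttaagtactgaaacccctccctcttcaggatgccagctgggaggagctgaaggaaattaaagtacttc
Ly6c2: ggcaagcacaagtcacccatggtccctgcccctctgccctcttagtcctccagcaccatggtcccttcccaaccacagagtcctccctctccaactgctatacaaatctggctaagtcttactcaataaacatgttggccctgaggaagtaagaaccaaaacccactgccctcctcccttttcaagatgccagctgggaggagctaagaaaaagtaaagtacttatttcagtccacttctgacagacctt
Ly6f: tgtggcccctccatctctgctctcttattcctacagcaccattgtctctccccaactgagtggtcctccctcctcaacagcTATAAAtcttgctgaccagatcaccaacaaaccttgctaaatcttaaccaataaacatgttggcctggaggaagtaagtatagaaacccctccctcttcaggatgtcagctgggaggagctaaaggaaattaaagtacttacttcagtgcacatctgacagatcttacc
In a local alignment, Ly6c1 and Ly6f were identical at 87.8% of 156 aligned columns, Ly6c1 and Ly6c2 at 73.6% of 231, and Ly6c2 and Ly6f at 71.8% of 255. These shares are over alignments of different length, with 137, 170 and 183 identical bases, so the share and the number of identical bases rank the pairs differently.

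Short motifs were searched on both strands of these windows, and no matches overlapped. TATAAA was found in the Ly6c1 window, from 143 to 138 bases before the start, and in the Ly6f window, from 169 to 164 bases before it. It occurs in 12.4% of all 32851 RefSeq windows of this length. AGGTCA was found in the Ly6c1 window alone, from 125 to 120 bases before the start, and occurs in 14.0% of all windows. GGTGTGA, a T-box half-site of the kind bound by Tbx3, was found before the second annotated start of Ly6c1 alone (3.33% of all windows), and TTCNNNGAA, a STAT site, was found in no window of these 5 genes (7.02%). A match is a description of letters, not evidence of binding.

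Most members lie side by side. In the RefSeq annotation 8 of the 10 are on chromosome 15, within a row of 26 protein-coding genes from Slurp1 to Ly6h, while Lypd6 is on chromosome 2 and Lypd3 on chromosome 7. Of the 26 genes, 15 had a probe set of their own, 5 of these reached a signal of 100 and 2, Ly6a and Ly6d, were called. These are the called members counted above, not a separate result, and the share called over all genes was 2.39%. The called genes were not adjacent. Between Ly6d and Ly6a lie Ly6k and Ly6e, with the values given above, and also Ly6g6g, with a log2 signal of 3.73 in Venus High cells and at the floor in Venus Low cells. The same interval holds Cyp11b1 and Cyp11b2, enzymes of adrenal steroid synthesis that were at the floor in both populations, Ly6m with a linear signal of 16.8 in Venus High cells, and Ly6i, directly beside Ly6a in this order, with 16.0. Lynx1, a GPI-anchored regulator of nicotinic receptors just before Ly6d, had log2 signals of 7.30 and 6.43. Of the flanking genes, Psca and Them6 before the row were at the floor in both populations. Behind it, Zfp41 had a log2 signal of 4.29 in Venus High cells and was at the floor in Venus Low cells, and Gpihbp1 is not analysed here.

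**Figure D3:**
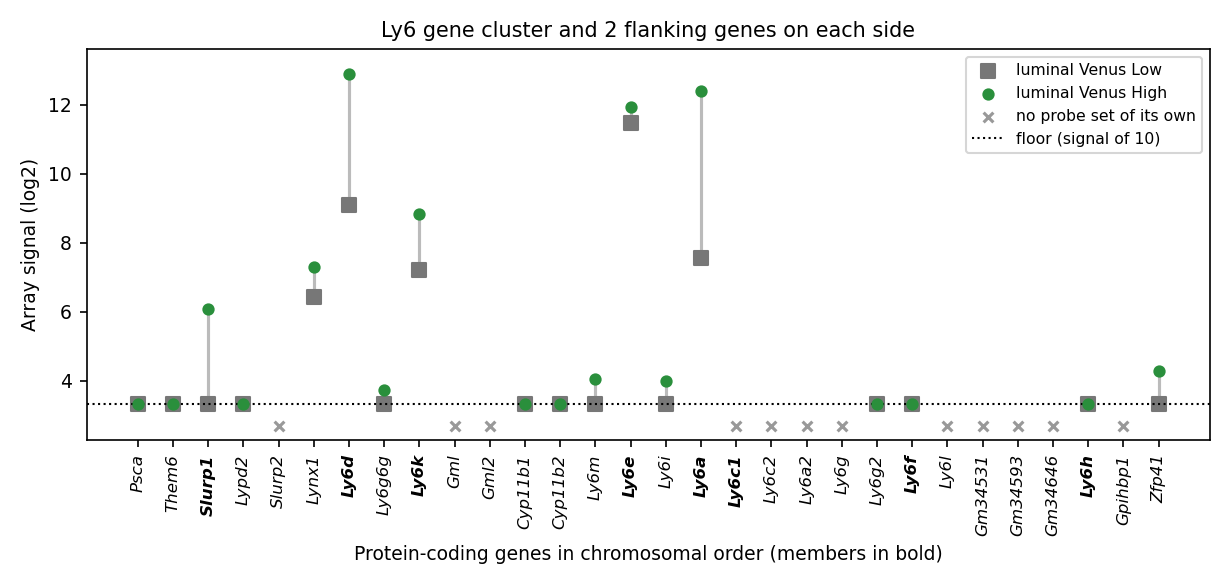
Array signal (log2, vertical axis) of the protein-coding genes from Slurp1 to Ly6h and 2 flanking genes on each side, in chromosomal order with even spacing, in luminal Venus High (green circles) and Venus Low cells (grey squares). Ly6d, Ly6k, Ly6e and Ly6a have the highest values in Venus High cells, Lynx1 and Slurp1 follow, the other genes with a probe set lie at the floor (dotted line) or within 1 log2 unit of it, and crosses mark genes without a probe set of their own.

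Other genes of the family gave no called gene, and with 2.39% of all genes called a list of this length may hold none. Of 36 other genes of the Ly6 and uPAR domain family, 16 had a probe set of their own, 9 of these were at the floor in both populations, 1 reached a signal of 100 and 0 were called. The 1 was Lynx1, with a log2 difference of 0.87, or 0.21 after median centring. The next in signal were Ly6g6e (6.61 (Venus High) and 5.38 (Venus Low)) and Ly6g6c (5.83 and 5.01), both below a signal of 100. Tex101, a partner of Ly6k, was at the floor in both populations. The other 20 genes, Plaur, Cd59a and Gpihbp1 among them, are not analysed here.

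Genes of the machinery that builds and attaches GPI anchors differed little beside Ly6a and Ly6d. Of 30 genes of GPI anchor assembly and attachment, 25 had a probe set, 13 reached a signal of 100 and 0 were called. With 2.39% of all genes called, a list of this length may hold none. The median log2 difference of the 13 was 0.49, next to 0.46 for all 3848 genes that reached a signal of 100. The largest of the 13 was 1.12, for Pgap2, which remodels the anchor's lipid. Pigq, a subunit of the enzyme that starts anchor synthesis, had log2 signals of 9.25 and 8.80, and Pigp, another subunit of it, had 8.84 and 8.81.

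Among genes of other GPI-anchored proteins, as in the Ly6 family, a few were called and the rest were not. Of 44 such genes, 32 had a probe set, 8 reached a signal of 100 and 3 were called. For scale, the share called was 2.39% over all genes and 8.64% among named probe sets with at least that signal. Gpc1, a heparan sulfate proteoglycan, had log2 signals of 8.41 and 3.48, Folr2, a folate receptor, had 7.99 and 3.93, and Cdh13, a cadherin without a cytoplasmic tail, had 7.06 and 3.33. All 3 were near the floor in Venus Low cells, and with the floor at 100 none was called, unlike Ly6a and Ly6d. After median centring, or with the median over a gene's probe sets, 2 were called. Prnp, the prion protein, had log2 signals of 9.02 and 7.57. Cd24a, whose product was used to gate luminal cells in both populations, had 13.17 and 12.39, and Efna1, an ephrin, had 9.33 and 9.20.

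**Figure D4:**
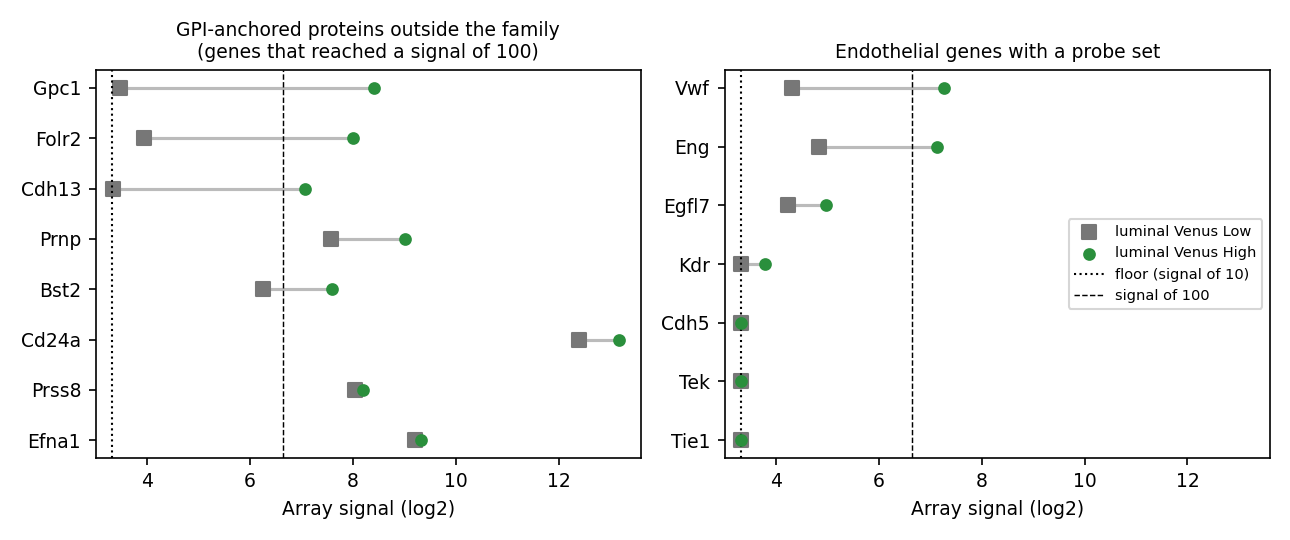
Array signal (log2, horizontal axes) in luminal Venus High (green circles) and Venus Low cells (grey squares) of genes of GPI-anchored proteins outside the Ly6 family that reached a signal of 100 (left) and of endothelial genes with a probe set of their own (right), 1 array per population. Gpc1, Folr2 and Cdh13 lie near the floor in Venus Low cells, and among endothelial genes Vwf and Eng pass a signal of 100 in Venus High cells.

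Known partners of the members gave no called gene, and with 2.39% of all genes called a list of this length may hold none. Of 23 such genes, 21 had a probe set, 16 were at the floor in both populations and 3 reached a signal of 100. Nicotinic receptor subunits, on which Slurp1, Lynx1 and Ly6h act, included Chrna7, which was at the floor in both populations. No subunit with a probe set reached a signal of 100, and Chrna10 and Chrnb1 are not analysed here. Lrp6, the partner of Lypd6, had log2 signals of 8.18 and 8.04. Itga6 (10.28 and 9.73) and Itgb4 (6.99 and 6.69) encode the chains of the integrin that Lypd3 is reported to bind, and Agr2 and Agr3, secreted proteins of which Agr2 is known to bind Lypd3, were at the floor in both populations.

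Ly6a, as Sca1, is one of the surface antigens used to sort mammary cells. Of 12 sorting antigens, 7 had a probe set, 4 reached a signal of 100 and 2 were called (over all genes 2.39% were). These were Ly6a and Prom1, a membrane protein used as a marker of hormone-sensing cells (11.67 and 5.69). Itga6, whose product CD49f was used in the gate of both populations, differed by 0.55 on the log2 scale. After median centring, which draws on values that hold no lower probe set, it differed by -0.11. Of 11 hormone-sensing markers, 9 had a probe set under the same naming and 8 were called. The 8 include Tbx3, whose locus defined the sort, and Prom1, which is in both lists. No marker could go the other way in values that hold no lower probe set, so a shared direction with Ly6a was fixed in advance. Esr1, the estrogen receptor alpha, had log2 signals of 10.62 and 7.64, and Pgr, the progesterone receptor, had 11.93 and 5.05. Of 12 alveolar progenitor markers, 0 had a probe set here, so markers of that lineage are not analysed here. These marker lists were chosen with earlier results known and give no independent support.

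The 5 genes whose pair of log2 signals lay nearest to that of Ly6a, by Euclidean distance over the 2 arrays, were Agps (12.19 and 7.71, a distance of 0.27), Phyh (12.03 and 7.48, 0.38), Gsn (12.67 and 7.88, 0.43), Gadd45g (11.85 and 7.57, 0.55) and Foxa1 (11.81 and 7.76, 0.63). Agps and Phyh encode peroxisomal enzymes of ether lipid synthesis and of phytanic acid breakdown, Gsn encodes the actin-severing protein gelsolin, and Foxa1 encodes a transcription factor of hormone-sensing cells. A likeness over 2 arrays is a weak description, and the brightness of different probe sets is not a measure of relative transcript levels.

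Ly6a and Ly6c1 are also known from endothelial cells. Of 12 endothelial markers, 7 had a probe set and 2 were called, in values that hold no lower probe set. Over all genes 2.39% were called. Vwf had log2 signals of 7.26 and 4.31 and Eng had 7.13 and 4.83. Cdh5, Tek and Tie1 were at the floor in both populations, and Kdr had 3.78 in Venus High cells. Egfl7 had 4.98 and 4.24, and Pecam1 is not analysed here. The summed signal of the 7 markers was 369 (Venus High) and 107 (Venus Low), where 70 would be all at the floor. The part of endothelial RNA in either difference was not tested. Markers of other cells that the gate could hold gave no called gene. All 10 leukocyte markers with a probe set (of 14) and all 7 basal markers (of 12) were at the floor in both populations on the probe sets analysed, and the other 4 and 5 are not analysed here. Probe sets that are lower in Venus High cells are missing from these values. Signal of these markers in Venus Low cells on other probe sets would therefore not be seen. Of 10 fibroblast markers, 9 had a probe set and 0 reached a signal of 100, with a summed signal of 153 (Venus High) and 112 (Venus Low), where 90 would be all at the floor. The brightest of them was Dcn, the matrix proteoglycan decorin, with linear signals of 64.6 and 29.7.

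The calls of Ly6a and Ly6d did not depend on how the arrays were scaled. Median centring lowered each difference by 0.66, which left 4.20 for Ly6a and 3.13 for Ly6d, and quantile normalization left 4.27 and 3.25. The share called among the 22224 named probe sets was 1.20% and 1.26% under these settings. Ly6k stayed below 4-fold under each of them, Slurp1 fell below 4-fold with the floor at 32 and the probe set of Ly6c1 and Ly6c2 with the floor at 100, and Ly6e was the only one whose sign turned. Both scalings draw on values that hold no lower probe set and so lower the differences even on a shared scale. The sign of Ly6e after them is therefore no measure of its direction.

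**Figure D5:**
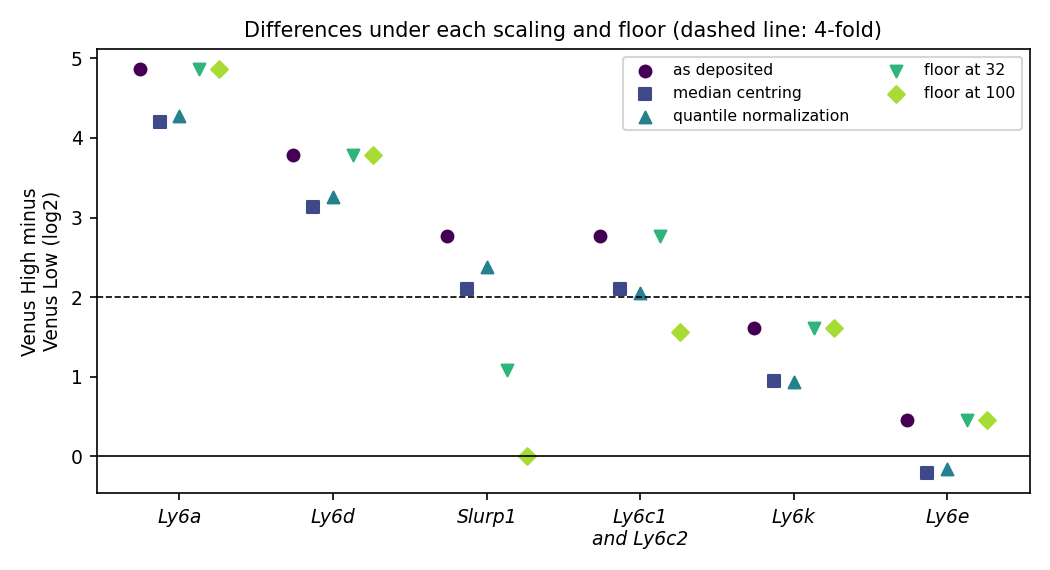
Log2 difference, Venus High minus Venus Low (vertical axis), of each member probe set above the floor and of the probe set shared by Ly6c1 and Ly6c2, as deposited and after median centring, quantile normalization or a floor raised to 32 or 100. Ly6a and Ly6d stay above the dashed 4-fold line at every setting, Ly6e lies on both sides of 0, and Slurp1 falls to 0 with the floor at 100.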

How the data were processed

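Luminal cells from 1 pool of 3 mice were split into Venus High and Venus Low cells, and each was measured on 1 Affymetrix mouse genome array, from 250 ng of total RNA (RNA integrity number above 9.4 per the labels). The deposited values are log2 signals. The authors log2-transformed them and then normalized and centred each sample in BRB Array software. MAS5 is named in the processing notes of the submitters. The sources used here do not give what the values were normalized to, so it is unknown whether both arrays share a scale. The medians over 5889 probe sets with a signal of at least 100 were 8.21 (Venus High) and 7.55 (Venus Low), and those of the whole columns lie at the floor. In values that hold no lower probe set the Venus High median cannot be the smaller one, so these medians do not tell whether the scale is shared.

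Of 29338 probe sets, 16370 had the floor value on each array and the other 12968 were higher in Venus High cells. The platform annotation lists 602 with several symbols and does not list 6513. Symbols were updated through the RefSeq gene table of GRCm38.p6, which also gave the order of genes on chromosomes. The build of the array's annotation is not given. Where a list counts genes, the probe set of highest mean log2 value stands for the gene. Columns of other samples numbered 0.

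The members and lists were chosen with earlier results of these data known. All members were named. From the related lists the text gives each called gene and up to 3 others of high signal, and further names, added to illustrate a count, were chosen after their values were seen. Alternatives concerned the scale (median centring, quantile normalization), the floor (32 or 100), the fold threshold (2-fold or 8-fold), the signal minimum (50, 200 or none), the removal of probe sets that can match several transcripts (names with _a, _s or _x) and the median over a gene's probe sets. Python 3.11.15 with numpy 2.4.6, pandas 2.3.3, matplotlib 3.10.9 and Biopython 1.88 was used, and the calling step was tested on simulated data.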

Additional observations from a re-analysis of the deposited data

How the results depend on the processing

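The count of called members was 2 as reported and lay between 2 and 3 under all 12 alternatives. Slurp1 made the third with a signal minimum of 50 or none, Ly6k with a 2-fold threshold, and the probe set of Ly6c1 and Ly6c2 when it was counted for Ly6c1, an alternative chosen after seeing the data. The median log2 difference of the members, 2.70, was 2.04 after median centring, 2.09 after quantile normalization, 3.79 without the types of probe set that can match several transcripts (which removes Ly6e) and 0 with no signal minimum (which adds the probe sets at the floor). After median centring and after quantile normalization, in that order, the log2 differences were 4.20 and 4.27 for Ly6a, 3.13 and 3.25 for Ly6d, 0.95 and 0.93 for Ly6k, 2.11 and 2.38 for Slurp1, 2.11 and 2.06 for Ly6c1 and Ly6c2 together, and -0.21 and -0.15 for Ly6e, which thus turned its sign. Because both scalings draw on values that hold no lower probe set, this turn of sign does not decide the direction of Ly6e. Slurp1 had 1.09 with the floor at 32 and 0 with the floor at 100, where Ly6c1 and Ly6c2 had 1.56. The 5 related lists name 140 genes other than members, and not all of them had a probe set. Of these genes 4 were called, 1 with the floor at 100, 2 without those types and 8 at 2-fold. For comparison, 2.39% of all genes were called. Of the named probe sets 2.09% were, 1.05% with the floor at 100 and 1.93% without those types. Values of single genes were held to have moved when they changed by more than 0.31, the pooled SD given above. No paired analysis was possible because each population has 1 array, and for the same reason no replicate could be left out.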
